A study of Mus musculus with 8 samples.

Results

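Spib, Ccl20 and Ccl25 were described here through their peaks of N6-methyladenosine (m6A), a methylated adenosine found inside mRNAs, in the authors' deposited table of peaks that differed between colonic epithelial cells with and without Mettl14. The 3 genes were chosen by name from that table with their values in view, and they carry 4 of its 195 peaks: Spib has 1, Ccl20 has 1 and Ccl25 has 2. The control mice carried floxed alleles only (Mettl14 f/f) and the knockout mice carried the same alleles with the Cre transgene (Mettl14 f/f; CDX-cre). All mice were C57BL/6 at postnatal week 6 and untreated, and each genotype had 3 m6A immunoprecipitates and 1 input library of unenriched RNA. The labels do not say which CDX promoter drives the Cre, whether RNA was pooled over animals, or whether replicates came from separate mice. The cells are bulk colonic epithelium, in which M cells are few, so the number of cells of a type and the amount of RNA per cell cannot be told apart.

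Mettl14 is the partner subunit of Mettl3 in the nuclear complex that writes m6A, and reader proteins that bind the mark affect how long an mRNA lasts and how well it is translated. Spib encodes an Ets-family transcription factor needed for the maturation of M cells, the epithelial cells over lymphoid follicles that take up antigen from the gut lumen, and it also acts in B cells and plasmacytoid dendritic cells. Ccl20 encodes the chemokine ligand of the receptor CCR6, made by the epithelium over lymphoid follicles and induced by inflammatory signals, and it draws B cells, T cells and immature dendritic cells. Ccl25 encodes the ligand of CCR9, best known in the thymus and the small intestine, where it directs T cells and plasma cells to the gut.

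The table gives 1 value a peak and no value of any sample, so read depth and replicate spread are unknown, and no error can be set on a value below. The log2 fold change is the authors' difference in m6A signal between the genotypes, and its sign is printed as deposited. The columns are named as in the R package exomePeak, but which genotype is the numerator is not stated. The sign therefore does not tell which genotype had the higher signal. With 1 input library a genotype, altered methylation and altered RNA abundance cannot be told apart. The 3 listed peaks of Xist were negative, from -2.83 to -2.43, and whether the sex of the mice differed between the genotypes was not tested. Fold enrichment and its p-value compare immunoprecipitate with input, and they are given once a peak with the genotypes not separated. These values describe neither genotype alone. Only peaks at a false discovery rate (FDR) of about 0.05 or less are listed.

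The transcript starts are shown first because the Spib and Ccl20 peaks and 1 block of the long Ccl25 peak begin at one. Each run is the 5′ end of the RNA under a peak, read from RefSeq's promoter table (GRCm38.p6, the same assembly as mm10), with T for U. Capitals mark the m6A consensus, searched on the transcript strand alone as GAC or AAC with A, G or T before it and any base but G after it.

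Spib, first exon block, chr7:44532031-44532071, minus strand: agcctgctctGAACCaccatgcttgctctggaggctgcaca

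Ccl20, first 30 bases of the first exon block, chr1:83116766-83116795, plus strand: gagcactcgcagggcactgggtacccagca

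Ccl25, upstream start, first 20 bases of the first exon block, chr8:4325240-4325259, plus strand: caaggcgcccagtggagtcg

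Ccl25, downstream start, first 30 bases of the third exon block, chr8:4349588-4349617, plus strand: agttcactgatcccataggcaatacacgct

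Only the Spib run among these 4 holds a consensus match, GAACC at base 11. Its first ATG is at base 19. The block of 41 bases ends where the genome goes on with gtaagtggg, which opens with the gt of a splice donor, so the block ends as an exon would. Of all 32851 RefSeq start windows, 48.0% hold the consensus in their first 41 bases, so its presence in Spib is common. Of the same windows, 37.5% hold it in their first 30 bases and 24.1% in bases 31 to 50, the stretches read for Ccl20 and Ccl25. The other blocks have no sequence in the tables used here, and a match is a string of letters, not a mapped methylated base.

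Spib had the highest log2 fold change in the authors' deposited table, 5.70, a 52.0-fold difference between the genotypes with an FDR of 0.0288. The size of this value and the evidence behind it stood far apart: Spib was first of 195 peaks by log2 fold change and 156th by FDR. Its enrichment over input was 5.96-fold, rank 72, above the median of 4.43-fold. The authors' log10 p-value of that enrichment was -5.15, and only 7 listed peaks had a weaker one. The Spib peak lay at chr7:44529540-44532071 on the minus strand. It was short once spliced, with 211 nt in 4 exon blocks, and 18 listed peaks were shorter.

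From the 5′ end, the Spib blocks measured 41, 28, 73 and 69 nt. The gaps between them were 780, 1293 and 248 nt. The first block began exactly at the RefSeq transcript start, 16 nt inside the gene span. The last block ended 3545 nt short of the 3′ end of the gene, so the peak took the 5′ part of the locus and spanned 41.6% of its 6093 nt. Summed blocks made up 8.33% of the peak's own span. No listed peak lay in the 3′ part of Spib.

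Ccl20 stood second at 5.22, a 37.3-fold difference in the authors' deposited table, and unlike Spib it was also high by evidence. Its FDR was 1.91e-10, rank 8 of 195, with an unadjusted p of 6.31e-14. The peak was enriched 16.7-fold over input, rank 29, with a log10 p-value of -11.3, rank 155. Spib and Ccl20 were the 2 listed peaks with a log2 fold change above 5, and the next value, 4.76, belonged to Lrg1, a secreted leucine-rich glycoprotein.

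The Ccl20 peak covered its gene from end to end, chr1:83116766-83119167 on the plus strand, the same first and last base as the RefSeq gene of 2402 nt. Its 4 exon blocks measured 137, 115, 78 and 472 nt, 802 nt in all. The last block alone held 58.9% of the summed blocks, and its centre lay at 90.2% of the gene from the 5′ end. The peak midpoint, at 50%, therefore says little about where its bases lie. A peak that runs over the whole transcript gives no position of a methylated site within it.

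Ccl25 was listed with 2 peaks, both positive in the authors' deposited table. The long peak had a log2 fold change of 3.19, a 9.13-fold difference, with an FDR of 6.92e-09, rank 15 by log2 fold change and 13 by FDR. The short peak had 2.32, a 4.99-fold difference, with an FDR of 0.0240, rank 26 and 149. The order turned for peak strength. The short peak was enriched 18.4-fold with a log10 p-value of -32.0, and the long one 10.8-fold with -17.5. Without replicate values it cannot be said whether the difference of 0.87 between the log2 fold changes exceeds error. Among the 22 genes with several listed peaks the corresponding difference ran from 0.03 to 1.68 with a median of 0.51, and Ccl25 was among the 7 largest.

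The long Ccl25 peak lay at chr8:4325240-4357636 on the plus strand and spanned 93.1% of the gene, of which its blocks filled 1.87%. Its 7 exon blocks measured 49, 137, 68, 123, 118, 113 and 44 nt from the 5′ end, 652 nt in all. RefSeq gives Ccl25 an upstream and a downstream transcript start. The first block began 30 nt after the upstream start, at position 4325210. The third block began exactly at the downstream start, position 4349588, after a gap of 21694 nt. One deposited peak thus joined exon blocks from both starts, and its single value does not separate transcripts of the upstream start from those of the downstream start. The short peak, a single block of 297 nt at chr8:4359724-4360020, ended on the last base of the gene, 2087 nt after the end of the long peak. It is the one member peak that lay wholly at the 3′ end.

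**Figure D1:**
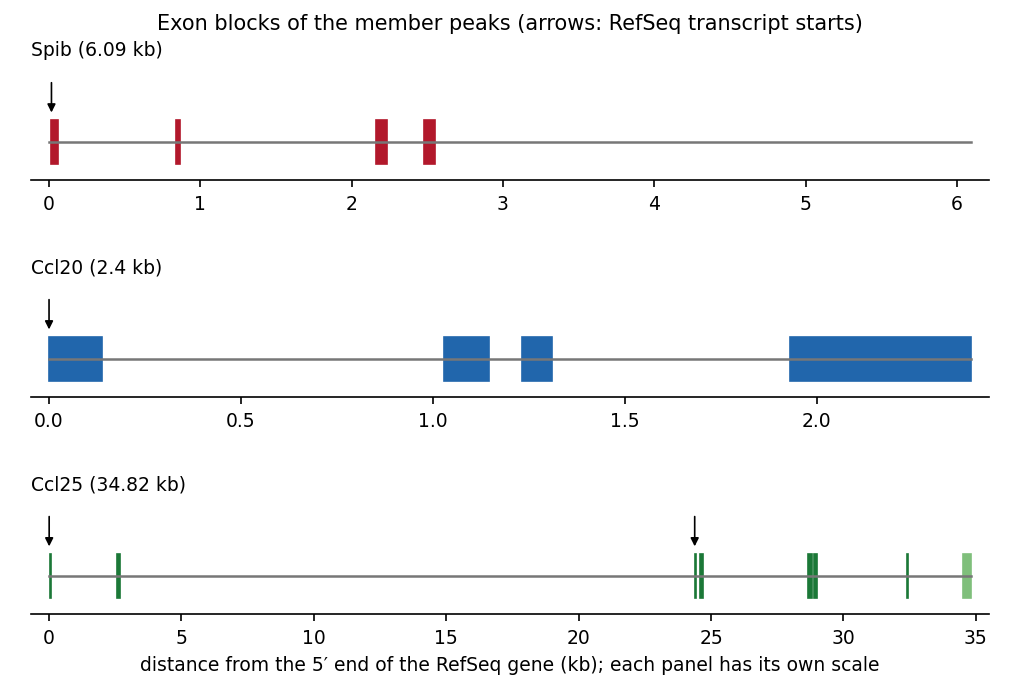
Exon blocks of the member peaks drawn to scale along each RefSeq gene, with distance from the 5′ end in kb and a scale of its own for each gene; dark bars are blocks, the light green bar is the short Ccl25 peak, and arrows are RefSeq transcript starts. The Spib blocks keep to the 5′ part of the gene, the Ccl20 blocks reach from its first to its last base, and the long Ccl25 peak has blocks at both starts.

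Starting exactly at a RefSeq start was found for 29 of the 155 listed peaks whose gene has a start in the table, 18.7%, and all 29 were positive. Spib and Ccl20 were among them. Ending on the last base of the gene was found for 9 of 195 peaks, 4.62%, and the Ccl20 peak and the short Ccl25 peak were among these. Peaks with at least 4 exon blocks numbered 32 and were all positive, which takes in Spib, Ccl20 and the long Ccl25 peak. These layouts were counted over the listed peaks only.

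All 4 member peaks were positive, where 61.5% of the listed peaks were. All 4 had a log2 fold change of at least 2, where 15.4% of the list had a positive value that large. At an FDR of 0.01 the Ccl20 peak and the long Ccl25 peak were left, 2 of 4, where 53.3% of the list passed. Since the genes were picked from these same values, nothing follows from the counts. All 4 were also above the median enrichment of 4.43-fold, while the short Ccl25 peak alone was past the median log10 enrichment p-value of -26.2.

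**Figure D2:**
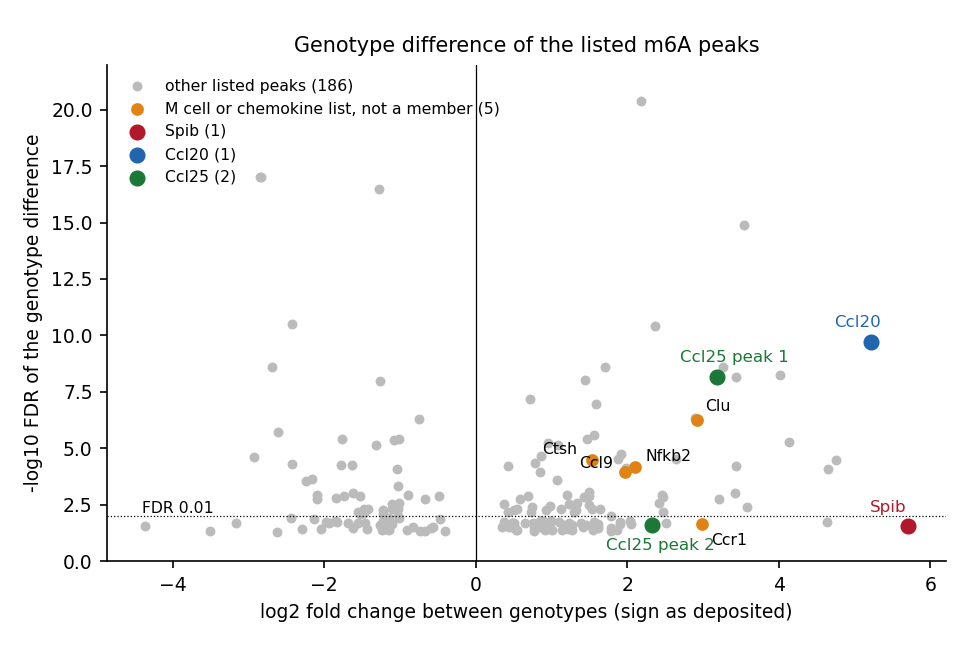
Log2 fold change between the genotypes against the -log10 FDR of that difference for all 195 listed peaks, 1 point a peak, with the members and the listed genes of the M cell and chemokine lists coloured. Spib lies farthest right, at 5.70, but under the dotted line of an FDR of 0.01, while Ccl20 at 5.22 and the long Ccl25 peak (peak 1) at 3.19 lie well above it.

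**Figure D3:**
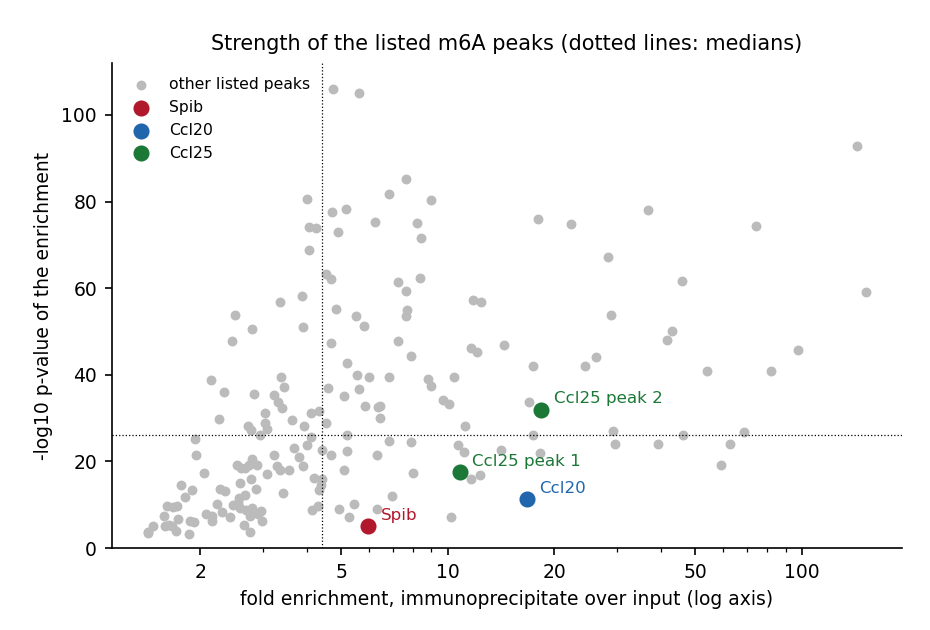
Fold enrichment over input, genotypes not separated, on a log axis against the -log10 p-value of that enrichment for the same peaks. Dotted lines are the medians. The member peaks are all right of the median enrichment of 4.43-fold, and Spib, Ccl20 and the long Ccl25 peak are below the median of the p-value axis.

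By log2 fold change of the strongest peak of each gene, the genes nearest to Spib were Ccl20 at 5.22, Lrg1 at 4.76 and Ncf4, which encodes a subunit of the oxidase that phagocytes use against microbes, at 4.65. The genes nearest to Ccl20 were Lrg1, Spib and Ncf4. Ccl25 at 3.19 was nearest to the chemokine receptor gene Ccr1 at 2.99, the lactate dehydrogenase subunit gene Ldhb at 3.42 and the protease inhibitor gene Slpi at 3.43. Likeness here is closeness of 1 number a gene, not a pattern over samples.

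Chemokines were sought as a family, 42 ligand and 22 receptor genes. Of the ligands, 3 were listed: Ccl20, Ccl25 and Ccl9. Whether 3 of 42 is many cannot be said, as the share of all genes with a listed peak was not computed. Ccl9, a ligand of the receptor CCR1 that is made by follicle-associated epithelium and draws dendritic cells in mouse Peyer's patches, was at 1.97 with an FDR of 0.00011. Its peak had 3 exon blocks and 298 nt and was enriched 4.43-fold. Of the receptors, Ccr1 alone was listed, at 2.99 with an FDR of 0.0229, in a single block of 686 nt enriched 59.2-fold. Ccr1 is a receptor of myeloid cells, and Ccr6 and Ccr9, the receptors for Ccl20 and Ccl25, were not listed. All 4 listed chemokine genes were positive, where 109 of the 168 listed genes were, 64.9%. Ccl20 and Ccl25 were picked with these values in view, which leaves Ccl9 and Ccr1 as the 2 others.

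The list of M cell and follicle epithelium genes held 34 genes, of which 6 were listed and all 6 were positive, beside 64.9% of all listed genes. Spib and Ccl20 among them were picked from these values. The share of all genes with a listed peak was not computed, so whether 6 of 34 is many cannot be said. The 4 others, Ccl9, Clu, Nfkb2 and Ctsh, lay between 1.54 and 2.92, where the median over all 168 listed genes was 0.77. That median takes in 59 genes with negative values. The median of the positive listed peaks alone was 1.365, close to the value of Ctsh. Earlier results of these data were known when the list was written, so these values are a description. Clu, the secreted chaperone clusterin, was at 2.92 with an FDR of 5.5e-07 over 4 blocks that spanned 48.4% of its gene, from 89 nt after the 5′ end. Nfkb2, the subunit of the alternative NF-kB pathway that acts downstream of the receptor RANK in M cell development, was at 2.1 with an FDR of 6.76e-05. Ctsh, the lysosomal protease cathepsin H, was at 1.54 with an FDR of 3.24e-05. The M cell genes Gp2, the uptake receptor for bacteria with type 1 pili, Tnfaip2, Sox8, which acts with Spib in M cell maturation, and Tnfrsf11a, which encodes RANK, were not listed. A gene that is not listed either missed the authors' threshold or had no peak tested. Clu, Nfkb2 and Ctsh are also made by cells other than M cells, and the cell source of Ccl9 was not tested either.

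**Figure D4:**
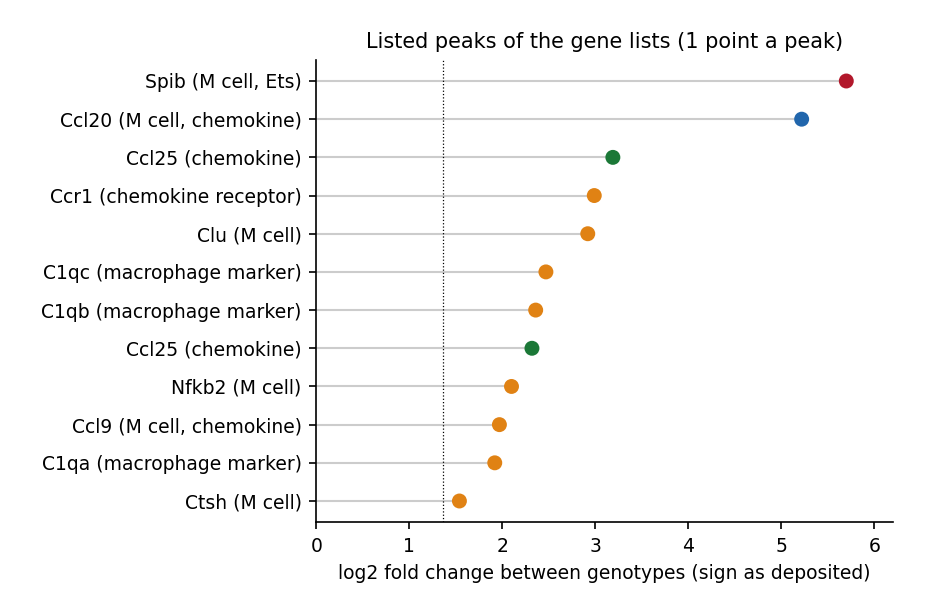
Log2 fold change of each listed peak of the M cell, Ets family, chemokine and cell type marker lists, 1 point a peak, with the gene lists in brackets; the dotted line is the median of the positive peaks of the table. All 12 points are above 0, from 1.54 for Ctsh to 5.70 for Spib.

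Spib was the 1 listed gene of 26 Ets-family genes, and its close relative Spi1, the myeloid and B cell factor PU.1, was not listed. Spib and Ccl25 also have roles in B cells, plasmacytoid dendritic cells and T cell homing, so markers of such cells were set beside them. Of 13 B cell, 7 plasma cell, 12 T cell and 7 plasmacytoid dendritic cell markers, 0 were listed. The table holds 168 genes in all, and the share of all genes that are listed was not computed. A count of 0 from so few markers therefore says nothing on whether those cells were present. Of 12 macrophage and dendritic cell markers 3 were listed, the complement genes C1qa at 1.92, C1qb at 2.36 and C1qc at 2.47. All 3 were positive, where 64.9% of all listed genes were, and their peaks lie close together on chromosome 4. The other markers of that list, among them Csf1r, Adgre1 and Cd68, were not listed. Of 12 colonocyte and goblet cell markers 0 were listed. A marker alike in both genotypes would not be listed, so these 12 give no check of the labelled tissue. The part of other cell types in the member values was not tested.

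Of all listed peaks 61.5% were positive, as were all 32 peaks with at least 4 blocks, whatever share of the gene they spanned. The 9 listed peaks with at least 3 blocks that spanned at least 90% of their gene were all positive with a median log2 fold change of 0.84. Ccl20 at 5.22 and Ccl25 at 3.19 were the highest of them. The next were Guca2b, which encodes uroguanylin, at 1.44, AW112010 at 0.96 and Vamp8, a vesicle fusion protein, at 0.84. Among these 9, enrichment over input was also highest for Ccl20 at 16.7-fold and Ccl25 at 10.8-fold. Guca2b and Vamp8 had 6.81-fold, and AW112010 had the lowest, 2.73-fold. Peaks of fewer blocks were left out of the 9, and some of them also spanned at least 90% of their gene. Lrg1, with 2 blocks over 100% of its gene, was at 4.76 and enriched 152-fold. A peak over the whole gene is thus not particular to the chemokines.

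The 250 bases before a start are shown for Spib, Ccl20 and the downstream start of Ccl25, because an exon block begins exactly at each of these starts and the genes share the sign of their difference. Those of the upstream Ccl25 start lie in part over the 5′ end of Elavl1, a gene on the opposite strand, and are given by values alone. Capitals mark matches, on either strand, to the Ets form GGAAGT, to TATAA and to the kappa-B consensus, read as GGG, a purine, any 2 bases, 2 pyrimidines and CC. Matches to different motifs did not overlap.

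Spib, chr7:44532072-44532321, minus strand: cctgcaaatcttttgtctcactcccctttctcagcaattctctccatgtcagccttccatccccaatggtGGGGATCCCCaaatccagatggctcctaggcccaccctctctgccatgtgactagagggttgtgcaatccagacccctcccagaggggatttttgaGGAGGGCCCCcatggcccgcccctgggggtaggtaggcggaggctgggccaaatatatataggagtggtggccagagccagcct

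Ccl20, chr1:83116516-83116765, plus strand: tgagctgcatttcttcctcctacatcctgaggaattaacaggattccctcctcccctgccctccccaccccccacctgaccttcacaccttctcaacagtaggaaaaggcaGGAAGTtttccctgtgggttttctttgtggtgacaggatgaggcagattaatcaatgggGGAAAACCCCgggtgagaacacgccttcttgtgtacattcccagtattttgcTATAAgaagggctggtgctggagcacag

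Ccl25, downstream start, chr8:4349338-4349587, plus strand: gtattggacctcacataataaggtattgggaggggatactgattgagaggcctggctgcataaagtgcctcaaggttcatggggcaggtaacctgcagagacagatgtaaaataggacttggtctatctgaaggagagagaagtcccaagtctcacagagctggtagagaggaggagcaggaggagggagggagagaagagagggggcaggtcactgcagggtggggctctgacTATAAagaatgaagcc

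The Ccl20 promoter held GGAAGT 139 to 134 bases before its start, TATAA 28 to 24 bases before it, and a kappa-B match on the opposite strand 80 to 71 bases before it. The Spib promoter held a kappa-B match on both strands 180 to 171 bases before its start and another on the opposite strand 84 to 75 bases before it. TATAA was searched as that exact string alone, so the run tatatata near the Spib start was not counted. Of all 32851 promoter windows of this length, 19.7% held GGAAGT, 22.8% held TATAA and 7.25% held a kappa-B match. The Ccl25 starts were unlike each other. The upstream one had 74.8% G and C and 45 CG pairs, more than 99.6% of promoters, and no match. The downstream one had 51.6% G and C, 0 CG pairs and TATAA 16 to 12 bases before the start. The Spib and Ccl20 promoters had 2 CG pairs each, against a median of 6. No DNA or factor binding was measured here, so these are descriptions of letters.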

How the data were processed

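The labels describe 8 libraries of colonic epithelial RNA, with 3 m6A immunoprecipitates and 1 input for each genotype, built from 5 ug of total RNA with a stranded kit. Per the submitters' processing notes, the tools were HISAT2 2.1.0, Trim Galore 0.6.5, R 3.6 and HOMER 4.10.0 on mm10, with no role stated. The peak caller and how replicates were combined are not given in the sources used here. As the columns are named, per the file headers, the authors deposited for each peak an enrichment p-value with its log10, deposited here as a score, a linear fold enrichment ratio, and the log2 fold change, log10 p-value and log10 FDR of the genotype difference. The authors' log10 values were turned back into linear ones, coordinates were made 1-based, and exon blocks were summed. All 168 gene names matched the RefSeq table of GRCm38.p6, directly or as older names. Depth is unknown, so no interval is given and no test was run; counts and ranks are over the 195 listed peaks. The members and gene lists were chosen with earlier results of these data known. Named genes are the members, the 3 genes nearest to each in log2 fold change and list genes with a listed peak. Also named are the 5 highest among peaks of at least 3 blocks over 90% of a gene. Genes overlapping or next to a member peak are named too. List genes named as not listed, and neighbours that overlap no peak, were chosen after their values were seen. Block and rank arithmetic was tested on simulated data. Alternatives were a stricter FDR, minimum fold changes, other measures of strength, coverage and position, and the median over peaks of a gene. Python 3.11.15, pandas 2.3.3 and numpy 2.4.6 were used.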

Additional observations from a re-analysis of the deposited data

How the results depend on the processing

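An FDR of at most 0.01 left 2 of the 4 member peaks, where 53.3% of all listed peaks passed, and with Spib gone 0 Ets-family genes. That FDR left 5 of 6 M cell list genes and 3 of 4 chemokine genes, where it left 90 of all 168 listed genes. These counts include members picked with their values in view. A log10 enrichment p-value at or below the median left 1 member peak. All 4 remained with a minimum absolute log2 fold change of 1 or 2 and with a minimum enrichment at the median. Ranked by FDR in place of log2 fold change, Spib went from 1 to 156, the short Ccl25 peak from 26 to 149, Ccl20 from 2 to 8 and the long Ccl25 peak from 15 to 13. Ranked by enrichment p-value in place of fold enrichment, Ccl20 went from 29 to 155, Spib from 72 to 187, and the Ccl25 peaks from 40 to 133 and from 23 to 81. Summed blocks in place of span gave a gene share of 33.4% for Ccl20, 3.46% for Spib and 1.87% for the long Ccl25 peak. By the largest block, positions were 90.2% for Ccl20, 36.0% for Spib and 7.53% for the long Ccl25 peak, against 50%, 21.0% and 46.6% by midpoint. The median over the Ccl25 peaks was 2.75 in place of 3.19. The share of summed exons was not run, as no exon annotation was used here. No paired analysis was possible because per-sample values are absent from the table used here; leaving out a replicate was not run for the same reason. Depth limits cannot be stated.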

Other observations

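The blocks of the member peaks overlapped no other RefSeq gene. The nearest neighbour of the long Ccl25 peak was the long noncoding RNA LOC108167518, which begins after the second block of that peak, with 6 bases between it and the second block. Elavl1, which encodes the RNA-binding protein HuR, lies on the opposite strand, with its 5′ end 99 bases from the first Ccl25 block. Pold1, a catalytic subunit of DNA polymerase delta, lies on the same strand as Spib, 672 bases upstream of its peak. Ccl20 stands alone, with the nearest gene, Daw1, 40574 bases away. The next listed gene on the chromosome was Atf5 at 1.56, 0.28 Mb from Spib, and Ncl at 0.48, 3.24 Mb from Ccl20. For Ccl25 it was Eif4ebp1 at 0.82, 22.9 Mb away.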
